A study of Mus musculus with 60 samples.

Results

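Helicobacteraceae and Campylobacteraceae are 2 families of curved or spiral, motile bacteria, and their sequence features were chosen here by the family name in the deposited taxonomy. The rule found 120 of 8574 features, 92 Helicobacteraceae and 28 Campylobacteraceae, and together they held 9.39% of all prokaryote counts. The study sequenced part of the bacterial 16S rRNA gene, amplified across its V3 and V4 regions, in male mice given nanoparticles of polyethylene terephthalate (PET), a polyester, by gavage. Mice of the PET groups received 0.5 mg a day in 0.1 ml for 28 days, and mice of the control groups are labelled as not exposed. PET stool of week 1 is labelled as exposed after 1 week, so it precedes the end of dosing. Neither a vehicle nor a strain nor an age of the mice is given in the sources used here. PET and control libraries came from colon tissue, lung tissue, oral swabs and stool at day 28 and from stool of week 1, with 6 libraries in each of the 10 groups. The study planned 12 mice, with 6 to an arm, and the labels do not say which libraries share a mouse, so nothing was paired and p-values measure the spread between libraries. DNA of colon and lung was extracted with a blood and tissue kit and DNA of stool and oral swabs with a soil kit, so kit and site cannot be told apart where colon or lung is set against stool.

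Helicobacter species swim through mucus with flagella and grow at low oxygen. The enterohepatic species live in the mucus layer and crypts of the rodent caecum and colon and are common in mouse colonies. H. typhlonius and H. ganmani were described from laboratory mice, H. mastomyrinus from the African rodent Mastomys, and H. apodemus from the field mouse Apodemus. Campylobacter species occupy the mouth and the gut of many mammals, and C. concisus, C. rectus, C. showae and C. gracilis are known from the human mouth.

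A share is given below as the percent of a library's prokaryote counts. Prokaryote counts ran from 55824 to 278584 in colon, 10083 to 321277 in lung, 119446 to 428630 in oral swab and 16513 to 1082777 in stool libraries. The 95% Wilson interval of the Helicobacter share had a half-width of at most 1.24% of the share itself in colon and 32.2% in lung, and it covers counting error only. Species names are those of the deposited classification and rest on a part of 1 gene.

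Most member features were rare, and only 12 of the 120 were detected in at least 3 libraries. The leading features labelled H. apodemus, H. mastomyrinus, H. typhlonius and H. ganmani took 99.4% of all Helicobacteraceae counts. The H. apodemus feature had 877499 counts in 59 of the 60 libraries at a classifier confidence of 0.795, where 1 is the highest possible. The H. mastomyrinus feature had 344844 counts in 59 libraries at a confidence of 0.936. The other two of these were in fewer libraries, H. typhlonius with 221209 counts in 47 libraries (confidence 0.996) and H. ganmani with 123507 counts in 24 libraries (confidence 0.727). Each of these 4 names below means its leading feature. In Campylobacteraceae 1 feature, labelled uncultured Campylobacter, held 82.0% of the counts.

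Helicobacter was the leading genus of colon tissue. It ranked first among all genera in 6 of 6 PET and in 5 of 6 control colon libraries, and second in the other control library. Its share was 39.6% at the lowest, 66.8% at the median and 91.1% at the highest in PET colon. The same 3 values were 12.4%, 66.9% and 96.4% in control colon. In stool at day 28 they were 2.30%, 4.91% and 6.01% in PET libraries and 3.35%, 5.41% and 7.41% in control libraries, where the genus ranked between 4 and 11. All 12 colon libraries lay above all 12 stool libraries of that day, in both arms.

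**Figure D1:**
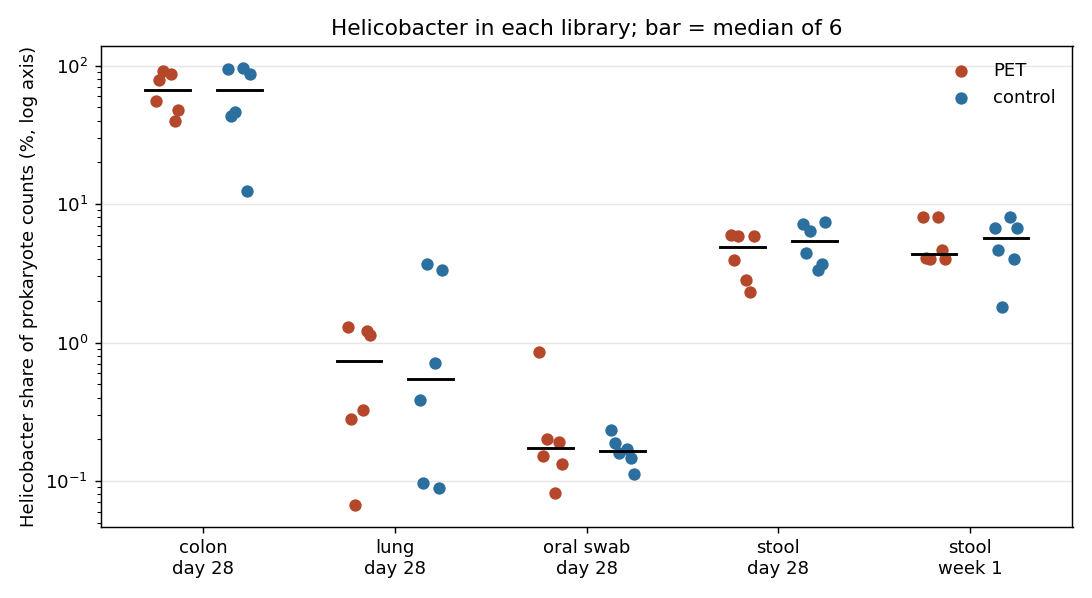
Helicobacter share of prokaryote counts (percent, log axis) in each of the 60 libraries, by site and time, with PET libraries left of control libraries and a bar at the median of 6. All 12 colon libraries, at 12.4% or more, lie above all 24 stool libraries, and oral swab libraries, at 0.859% or less, lie below them.

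Averaged over both arms, Helicobacter took 65.0% ± 27.6 of colon counts and 4.94% ± 1.72 of day 28 stool counts (SD, n = 12 each), a ratio of means of 13.2. On counts summed by genus, edgeR's quasi-likelihood test gave a log2 change of 6.44 ± 0.61 (SE; adjusted p = 1.93e-10), colon over stool. In this comparison 28.0% of the genera tested passed the threshold of 0.05 as higher and 4.0% as lower in colon. Every colon library lay above every stool library for 0.571% of genera, which was Helicobacter alone, and below every stool library for 1.71%.

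The size of the change depended on the scaling. With the trimmed-mean (TMM) factors of that fit the log2 change of the median genus was 1.59, and with library totals in place of TMM factors it was 0.14, with Helicobacter at 3.73. Within PET libraries alone the log2 change of Helicobacter was 5.02, and within control libraries alone it was 5.47. The difference between the arms in the change was -0.04 ± 0.97 on the log2 scale (edgeR adjusted p = 0.9997), and its sign turned with the scaling, to 0.34 with library totals.

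H. apodemus and H. mastomyrinus made up most of the colon population. H. apodemus had a lowest, median and highest share of 0%, 43.1% and 56.7% in PET colon and of 12.2%, 50.7% and 74.9% in control colon. In day 28 stool these values were 0.0175%, 1.20% and 2.84% in PET libraries and 1.06%, 1.82% and 3.09% in control libraries. Every colon library but 1 held more of it than any of these stool libraries. The exception was PET colon library 2, with 0 of 133103 counts, which allows a share of up to 0.00225%. The ratio of mean shares, colon over stool, was 26.9, and the edgeR log2 change was 5.27 ± 0.84 (adjusted p = 5.25e-07), or 4.78 with library totals.

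H. mastomyrinus had a lowest, median and highest share of 3.56%, 25.8% and 53.4% in PET colon and of 0.111%, 15.5% and 25.9% in control colon. In day 28 stool the values were 0.149%, 0.334% and 0.612% in PET libraries and 0.125%, 0.349% and 0.483% in control libraries. Of the colon libraries only control library 2, which also had the lowest Helicobacter share of colon, did not lie above all of these stool libraries, and its 0.111% was below the lowest of them. The ratio of mean shares, colon over stool, was 59.9, and the edgeR log2 change was 6.45 ± 0.98 (adjusted p = 2.47e-07), or 5.85 with library totals.

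**Figure D2:**
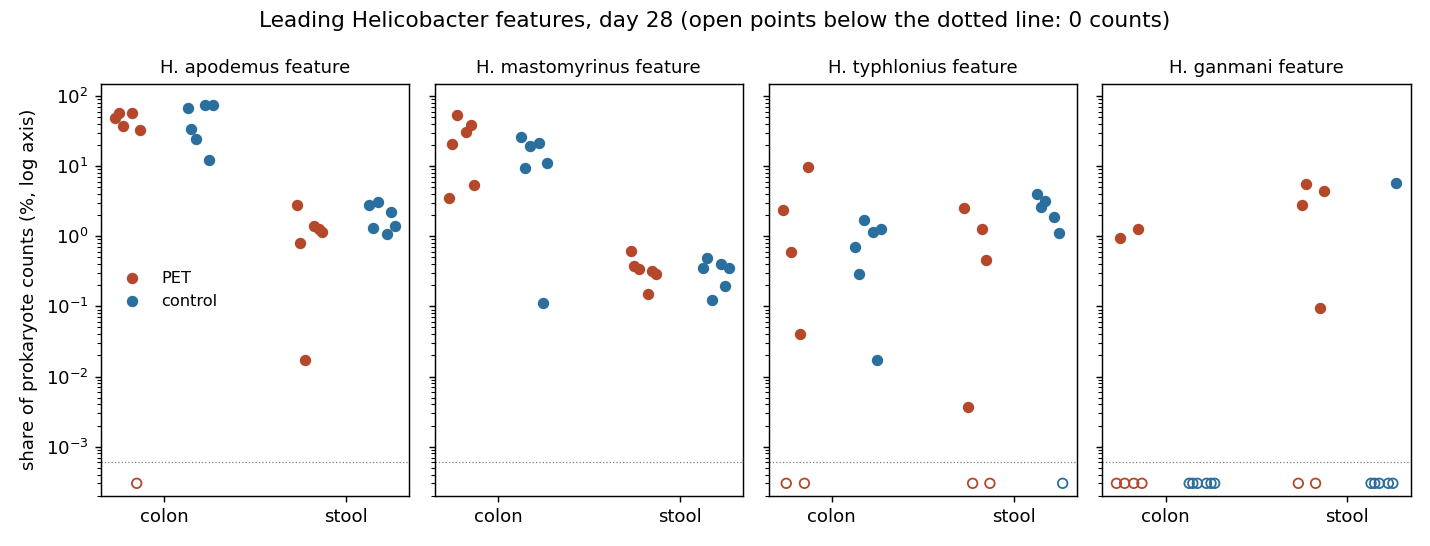
Share of prokaryote counts (percent, log axis) of the 4 leading Helicobacter features in colon and stool at day 28, PET left of control, 6 libraries per column; open points below the dotted line are libraries with 0 counts. H. apodemus and H. mastomyrinus stand higher in colon than in stool in all but 1 colon library each, while H. typhlonius overlaps between the sites.

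H. typhlonius overlapped between the sites. In PET colon it had 0%, 0%, 0.592%, 0.0398%, 2.34% and 9.85% in libraries 1 to 6, and in control colon 0.285%, 0.0171%, 1.71%, 1.14%, 0.697% and 1.29%. PET colon library 6 stood far above the other colon libraries. H. typhlonius averaged 2.14% ± 3.88 in PET and 0.857% ± 0.641 in control colon, and 0.717% ± 1.03 in PET and 2.13% ± 1.45 in control stool at day 28 (SD, n = 6 each). The edgeR log2 change was 0.51 ± 1.24 over both arms (adjusted p = 0.772). Without PET colon library 6 the change was -0.51, so its sign rested on that library.

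H. ganmani was found in 2 of 12 colon libraries, both PET, at 0.958% and 1.28%. In day 28 stool it had 2.79%, 0.0952%, 5.52%, 0%, 0% and 4.42% in PET libraries 1 to 6 and 5.66% in control library 6, with 0 counts in the other 5 control libraries. The edgeR log2 change, colon over stool, was -7.17 ± 2.47 (adjusted p = 0.0261). The ratio of mean shares was 0.121. The call was lost with limma (adjusted p = 0.640) and without the low count filter (edgeR 0.0591). It was also lost without the later code block defined below (log2 change -0.69, edgeR adjusted p = 0.798). In PET libraries alone it was lost as well (-2.41, edgeR adjusted p = 0.380). It was kept in 9 of 24 fits that each left out 1 library. Without control stool library 6 the log2 change was -1.88 (edgeR adjusted p = 0.332).

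As parts of the genus, the names were summed in pairs that follow the colon and stool levels above, so the split is a description. In some day 28 stool libraries H. apodemus alone was the largest name, as in control library 2 (60.8% of Helicobacter counts, against 30.1% for H. typhlonius). In others it was not, as in control library 3 (48.4% against 49.6%). H. apodemus and H. mastomyrinus together took 96.6% ± 5.64 of Helicobacter counts in colon and 42.4% ± 18.7 in day 28 stool (SD, n = 12 each). H. typhlonius and H. ganmani together took 3.16% ± 5.68 in colon and 56.5% ± 20.2 in day 28 stool. The share of the first pair ran from 79.2% to 99.8% in colon and from 6.16% to 68.6% in stool, so the sites did not overlap. In stool of week 1 the first pair took 50.1% ± 16.6 and the second 47.5% ± 19.7 of Helicobacter counts (SD, n = 12).

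**Figure D3:**
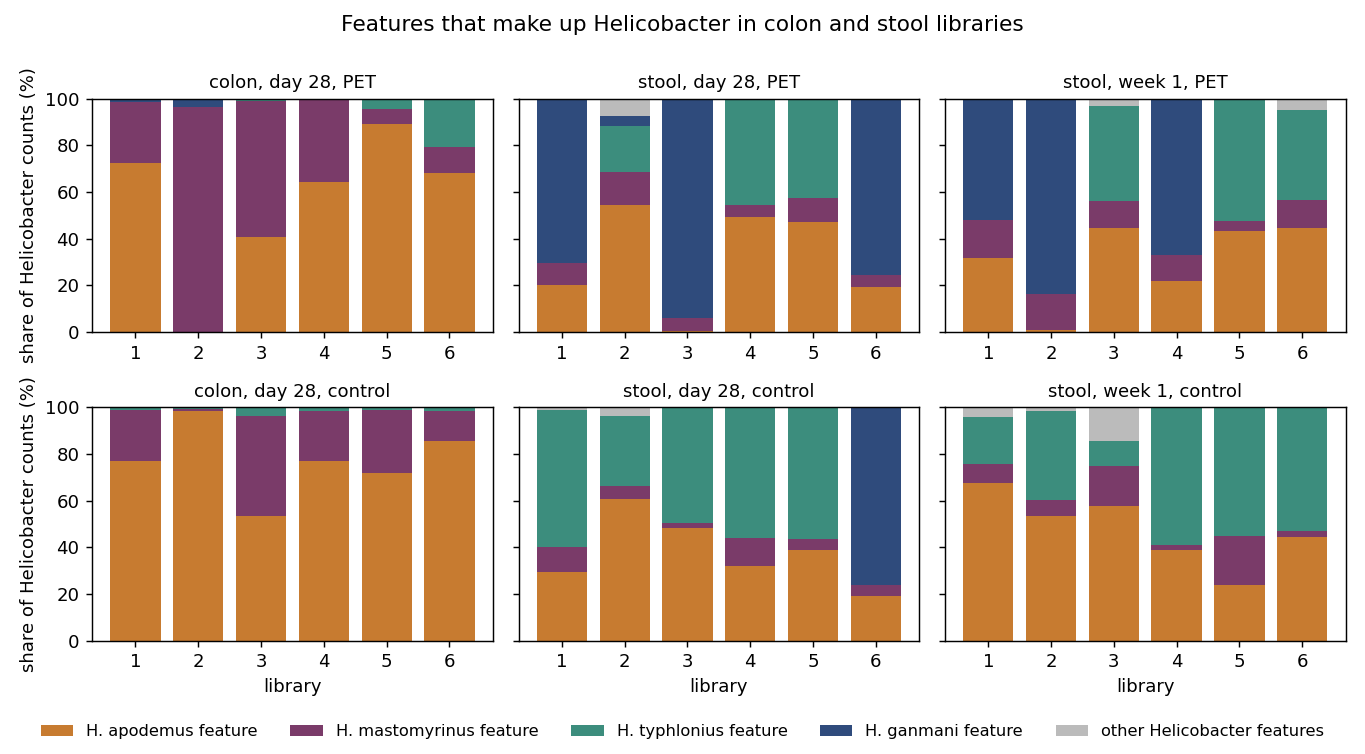
Make-up of the Helicobacter counts of each library (percent, stacked to 100) in colon at day 28, stool at day 28 and stool at week 1, PET in the upper and control in the lower row. H. apodemus and H. mastomyrinus fill at least 79.2% of each colon bar, and stool bars hold mostly either H. typhlonius or H. ganmani beside them, with both visible in PET library 2 of day 28.

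In stool, H. typhlonius and H. ganmani rarely shared a library. In 18 of 24 stool libraries only 1 of them was detected. In the other 6 the larger took at least 82.6% of the sum of both, and the next lowest of these values was 99.3%. Libraries of week 1 and day 28 may share mice, so the arms are counted at each time. In PET stool H. typhlonius was the larger in 3 and H. ganmani in 3 of 6 libraries at each time. In control stool H. typhlonius was the larger in 6 of 6 libraries at week 1 and in 5 of 6 at day 28. H. ganmani was the larger in 1 control library. That control library was day 28 library 6, with 0 counts of H. typhlonius. PET stool library 6 of day 28 also had 0 counts of H. typhlonius. It and control library 6 are the 2 stool libraries whose column names start with a number of a later block. Their sample codes run in sequence with those of the other libraries, and what the leading number stands for is not given. In PET stool at day 28 H. typhlonius averaged 0.717% ± 1.03, H. ganmani 2.14% ± 2.46 and their sum 2.85% ± 1.87 (SD, n = 6).

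H. apodemus was at or near 0 in 3 of 36 gut libraries, 1 in each PET gut group. It had 0 counts in PET colon library 2, a share of 0.0175% in PET stool library 3 at day 28 and 0.0308% in PET stool library 2 at week 1. In the other 33 gut libraries its share was at least 0.795%. Each of these 3 libraries held H. ganmani, at 1.28% in the colon library, 5.52% in the day 28 stool library and 3.87% in the week 1 stool library. H. apodemus was present in other libraries with H. ganmani. It took 72.4% of Helicobacter counts in PET colon library 1 and 18.9% in control stool library 6 at day 28. The labels do not say whether the 3 libraries at or near 0 came from 1 animal.

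Of the rarer features, 3 had counts in colon and none in day 28 stool, so they entered the test through colon alone and could differ only upwards. A Helicobacter feature without a species label had counts in 8 of 12 colon libraries (5 PET, 3 control) and 0 counts in all 24 stool libraries. Against a floor of 3 counts over the stool group it was at least 507-fold higher in colon than in day 28 stool. The second H. apodemus feature was at least 608-fold higher and the third at least 356-fold higher in colon than in day 28 stool. The second was in 5 colon libraries and the third in 4. Another feature without a species label had 45 counts in 1 colon library and 657 and 647 counts in 2 stool libraries of day 28 (log2 change -4.95, edgeR adjusted p = 0.101).

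Over the 8 member features that passed the filter on low counts in the colon and stool fit, 5 were called as higher and 1 as lower in colon, and 3 of the 5 are the features absent from day 28 stool. Among all 960 features tested 4.38% were called as higher and 14.7% as lower in colon. The members' count is therefore given as a description. In the test of a difference between the arms in this change, 0.0% of features were called as higher and 0.104% as lower in PET. Among the members 0 of 8 were called by edgeR and by limma, 2 had an unadjusted p under 0.05, and DESeq2 called 1.

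With both families taken out, the remaining counts ran from 8597 to 145697 in PET and from 4778 to 153394 in control colon. Lachnospiraceae NK4A136 group held 13.9% ± 10.7 of the remainder in PET and 10.9% ± 6.72 in control colon (SD, n = 6 each). Muribaculaceae, a family of gut anaerobes, held 3.61% ± 5.21 in PET and 9.66% ± 6.09 in control colon. Burkholderia-Caballeronia-Paraburkholderia, which is also known from reagents, held 7.50% ± 7.01 in PET and 8.25% ± 9.62 in control colon. Chlamydia, an intracellular genus, held 6.02% ± 8.07 in PET and 6.51% ± 12.1 in control colon. Lactobacillus, a genus of lactic acid bacteria, had a lowest, median and highest share of the remainder of 0.208%, 0.787% and 2.31% in PET and of 1.57%, 5.31% and 46.5% in control colon, and its lower level in PET passed the threshold (log2 change -4.19 ± 1.23, edgeR adjusted p = 0.0111). Without control library 2 the change was -2.83 (edgeR adjusted p = 0.118). Helicobacter itself did not pass, as given below.

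Measures of the remainder and the library total, 8 in all, were set against the Helicobacter share over the 12 colon libraries. Of 9 common reagent genera tested 6, and of 4 rodent mouth genera 3, were called as higher in colon than in day 28 stool, where 28.0% of all genera were. The median log2 change was 7.29 for the reagent and 4.18 for the mouth genera, against 1.59 over all genera. The share of all 11 listed reagent genera in the remainder had Pearson r = 0.787 (permutation p = 0.00419, adjusted p = 0.0335) and Spearman rho = 0.797 (permutation p = 0.00301, adjusted p = 0.0241). Without the 2 libraries farthest from the median Helicobacter share, r was 0.846 (adjusted permutation p = 0.0246). The Helicobacter shares leave a gap between 55.2% and 78.3%, and r was -0.420 within the 6 libraries below it and 0.438 within the 6 above it (exact permutation tests, adjusted p = 0.736 and 0.598). The relation thus did not pass within either set, which at 6 libraries and a narrower range does not show that it was absent. These sets were chosen after seeing the data. The pooled r, with all 12 libraries or without the 2 farthest, mainly sets the 2 sets against each other. Its p-values are therefore a description. In PET libraries alone r was 0.918 (exact permutation test, adjusted p = 0.233). The PET libraries fall into 2 sets of 3 on either side of the gap, so this r mainly sets the 2 sets against each other. The control libraries fall into 2 sets of 3 as well, and no r is given for them alone. The remainder is the rest of the same library's counts, so it and the Helicobacter share are not independent. As a percent of all prokaryote counts the reagent genera ran from 0.255% to 3.97% in PET and from 0.185% to 5.15% in control colon. Expected feature number at equal depth had r = -0.598 (permutation p = 0.0415, adjusted p = 0.118) and rho = -0.643 (adjusted p = 0.110).

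**Figure D4:**
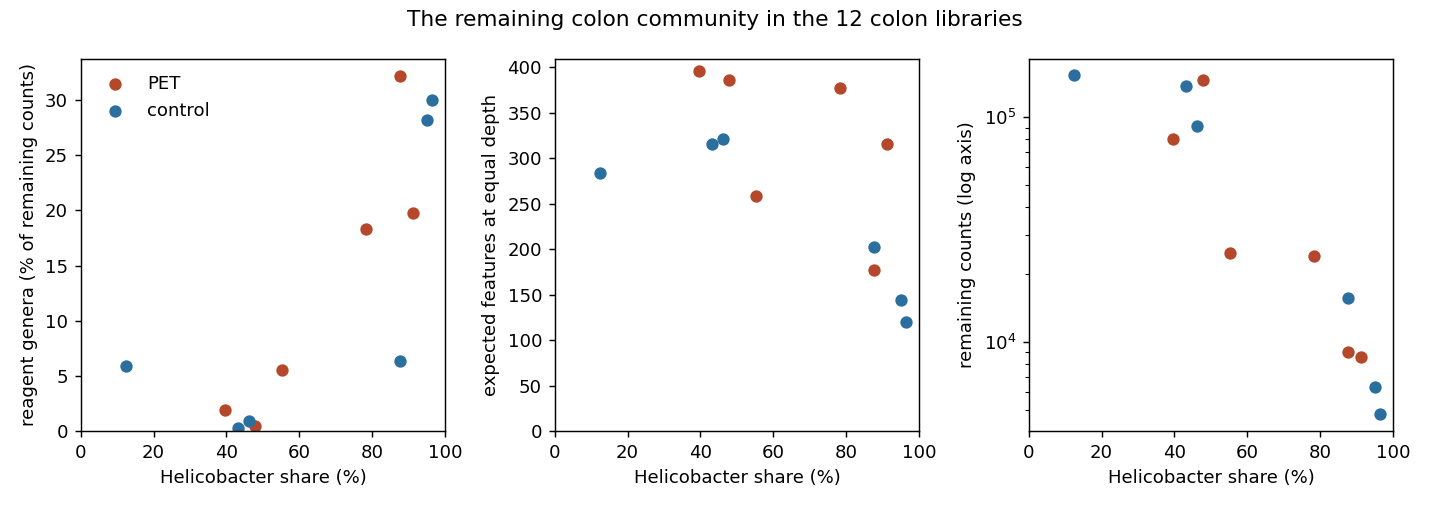
The 12 colon libraries by Helicobacter share (percent of prokaryote counts) against the reagent genera's share of the remaining counts, the expected number of remaining features at equal depth, and the number of remaining counts (log axis), PET and control in separate colours. Libraries on either side of a gap in Helicobacter share, between 55.2% and 78.3%, form 2 sets, and reagent genera reach 32.2% of the remainder in the upper one.

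Of 5 other genera known from mucus, Akkermansia, a mucin degrader, was called as higher in colon than in day 28 stool (edgeR adjusted p = 0.0106), and within control libraries alone it did not pass (adjusted p = 0.148). Mucispirillum, Desulfovibrio, Bilophila and Candidatus Arthromitus did not pass. Thus 1 of 5 was called as higher, against 28.0% of all genera, and the median log2 change of the 5 was 0.84, against 1.59 over all genera. Akkermansia averaged 0.181% ± 0.348 of prokaryote counts in PET and 0.0278% ± 0.0323 in control colon (SD, n = 6 each), far under Helicobacter. Between the arms of colon 1 of the 5 was called, Candidatus Arthromitus, the segmented filamentous bacteria. It had counts in 2 of 6 PET libraries, at most 0.00179%, and in 4 of 6 control libraries, with a median of 0.00558% and a highest share of 4.89%. The log2 change, PET over control, was -9.47 ± 2.04 (edgeR adjusted p = 0.00159). Without control library 2 it was -4.28 (edgeR adjusted p = 0.256), so the call rested on that library.

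With the filter, TMM factors and all libraries, edgeR called no member between PET and control at any site. In colon Helicobacter averaged 66.6% ± 21.9 in PET and 63.5% ± 34.6 in control libraries (SD, n = 6 each), and the ranges overlapped. The edgeR log2 change was -1.25 ± 0.97 (adjusted p = 0.611) and 0.07 with library totals, so its sign turned with the scaling, where the median genus stood at 0.57 with TMM factors and 0.94 with library totals. H. mastomyrinus averaged 25.3% ± 19.4 in PET and 14.6% ± 9.40 in control colon (log2 change 0.33 ± 1.38), and H. apodemus 38.6% ± 21.4 in PET and 47.9% ± 27.7 in control colon (-1.09 ± 1.31, edgeR adjusted p = 0.991 for both). In this comparison 13.5% of genera were called as higher and 2.13% as lower in PET. Of features 1.07% were called as higher and 1.28% as lower, and 0 of 6 tested member features were, with 0 at an unadjusted p under 0.05, 0 with DESeq2 and 0 with limma.

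At the other sites 0.0% of all genera and features were called by edgeR. Helicobacter averaged 4.47% ± 1.67 in PET and 5.40% ± 1.80 in control stool at day 28 (log2 change -0.13, edgeR adjusted p = 0.954). At week 1 it averaged 5.47% ± 2.01 in PET and 5.33% ± 2.28 in control stool (-0.26, edgeR adjusted p = 0.858). Of member features 0 of 4 in stool at day 28 and in lung had an unadjusted p under 0.05, and 1 of 6 in oral swabs did. DESeq2 and limma called 0 in each.

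H. ganmani differed most between the arms in stool at week 1. It stood at 2.13%, 3.87%, 0%, 5.41%, 0.0248% and 0.0113% in PET libraries 1 to 6 and at 0 counts in all 6 control libraries. The PET libraries at 0%, 0.0113% and 0.0248% were at or close to the control value, and the other 3 were far above it. The unadjusted p was 0.000289 and the edgeR adjusted p was 0.211, while DESeq2 called it (adjusted p = 6.96e-32) and so did edgeR without the low count filter (4.92e-13) and edgeR without PET library 3 (0.0315). With no counts in control stool it entered each of these tests through PET alone, so these p-values are a description. Over the group the PET share was at least 11554-fold higher than the floor of 3 counts in control stool. It was the 1 of 5 tested member features of week 1 with an unadjusted p under 0.05.

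Over time the Helicobacter share of stool overlapped between day 28 and week 1. In PET libraries the log2 change, day 28 over week 1, was -0.08 ± 0.36 (edgeR adjusted p = 0.943), and in control libraries it was -0.40 ± 0.36 (adjusted p = 0.617). The difference between the arms in this change was 0.32 ± 0.50 (edgeR adjusted p = 0.939). H. mastomyrinus at week 1 averaged 0.601% ± 0.193 in PET and 0.459% ± 0.477 in control stool (SD, n = 6), with control library 5 alone at 1.42%. H. ganmani in control stool had counts in library 6 of day 28 and in no library of week 1 (edgeR adjusted p = 0.235). In the time comparisons 0.0% of genera and features were called by edgeR. Among the 5 tested member features 0 in PET and 1 in control libraries had an unadjusted p under 0.05. DESeq2 called 0 in PET and 1 in control libraries, and limma called 0 in both.

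In lung Helicobacter was sparse, at 0.279%, 1.21%, 0.0674%, 0.324%, 1.29% and 1.14% in PET libraries 1 to 6 and at 0.0968%, 0.0890%, 3.68%, 0.710%, 0.386% and 3.32% in control libraries 1 to 6. The highest shares were in control libraries 3 and 6, with 24268 and 14464 prokaryote counts, while control libraries 1 and 2 had 321277 and 220277 counts. H. apodemus had 38 to 525 counts in lung, a span of 13.8-fold, while prokaryote counts per library spanned 31.9-fold. The part of depth in these shares was not tested. PET and control libraries overlapped, and the log2 change was -0.64 (edgeR adjusted p = 0.997).

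Against day 28 stool, Helicobacter was lower in lung (log2 change -3.58 ± 0.66, edgeR adjusted p = 1.11e-05, and -2.30 with library totals). In this comparison 65.8% of genera were called as higher and 18.1% as lower in lung, so a call there is the usual result. H. typhlonius was lower in lung (-5.97 ± 1.94, edgeR adjusted p = 0.00460), and H. ganmani had 0 counts in all 12 lung libraries, at least 4812-fold lower than in day 28 stool. H. apodemus had a log2 change of -2.58 (edgeR adjusted p = 0.0711) and passed in 7 of 8 other settings (-5.72 to -1.77). H. mastomyrinus had -2.24 (edgeR adjusted p = 0.120) and passed in 4 of 8 (-4.91 to -0.94). The feature without a species label that was absent from stool had counts in 8 of 12 lung libraries, 4 in each arm, and was at least 1978-fold higher in lung. In control lung library 3 it had 695 counts, 77.8% of that library's Helicobacter counts. Of 5 tested member features 1 was higher and 2 lower in lung, where 32.3% of all features were called as higher and 57.9% as lower. The higher one had 0 counts in stool and H. ganmani had 0 counts in lung, so both entered the test through the site that held them, and their calls are a description.

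Oral swabs held another mixture. Helicobacter had a lowest, median and highest share of 0.0813%, 0.172% and 0.859% in PET and of 0.112%, 0.165% and 0.233% in control swabs, all below the lowest day 28 stool library. In this comparison 14.4% of genera had every swab library below every stool library. The edgeR log2 change, oral swab over stool, was -0.86 ± 0.31 (adjusted p = 0.0166) with TMM factors and -4.53 with library totals, while the median genus stood at 6.25 and 3.09 under the same 2 scalings. Without PET swab 2 the log2 change was -0.35 (edgeR adjusted p = 0.257). H. ganmani was detected in 12 of 12 swabs and made up 44.8% ± 12.7 of Helicobacter counts in PET and 47.2% ± 7.71 in control swabs (SD, n = 6 each). Over all 12 swabs H. apodemus made up 35.9% ± 7.77 and H. mastomyrinus 14.5% ± 4.19. The share of H. ganmani in all prokaryote counts was 0.0190% to 0.482% in PET and 0.0393% to 0.132% in control swabs, although 11 of 12 control stool libraries and all 12 lung libraries had 0 counts of it.

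Campylobacter was found mainly in oral swabs and in some lung libraries. It had 0.0628%, 3.98%, 0.0547%, 0.0269%, 3.11% and 0.129% in PET swabs 1 to 6 and 0.0162%, 0.00413%, 0.395%, 0.110%, 0.231% and 0.00270% in control swabs 1 to 6, against at most 0.00179% in day 28 stool. PET swabs 2 and 5 were the highest, and the other PET swabs lay within the range of the control swabs. Every swab library lay above every stool library, as for 3.47% of the genera tested. The edgeR log2 change, oral swab over stool, was 13.74 ± 1.54 (adjusted p = 8.44e-08), and 10.99 with library totals, where 56.9% of genera were called as higher and 13.4% as lower. Between the arms the log2 change was 1.53 ± 1.18 (edgeR adjusted p = 0.900).

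The uncultured Campylobacter feature led the genus in oral swabs. It had 67, 15845, 186, 75, 1982 and 489 counts in PET swabs 1 to 6 and 43, 14, 1428, 312, 776 and 7 counts in control swabs 1 to 6. The arms overlapped, with PET swab 2 far above the rest, and the PET over control log2 change was 2.50 ± 1.39 (edgeR adjusted p = 0.997). Against day 28 stool its log2 change was 14.49 ± 2.01 (edgeR adjusted p = 3.01e-06). The feature labelled Campylobacter sp. had 8, 17 and 2212 counts in PET swabs 1, 4 and 5 and 0 in all control swabs (edgeR adjusted p = 0.411), so 1 swab held nearly all of them. With TMM factors, of 6 tested member features 2 were higher and 1, H. typhlonius, was lower in swabs than in stool (-3.95, edgeR adjusted p = 0.0227). Of all features 25.4% were called as higher and 30.7% as lower. H. mastomyrinus was not called (log2 change 0.04, edgeR adjusted p = 0.961), although every swab, at most 0.0816%, lay below every day 28 stool library, at least 0.125%. The log2 change of the median feature was -1.91 with TMM factors and -4.73 with library totals. Campylobacter sp., one of the higher features, had 0 counts in stool and entered the test through 3 swabs alone, so its call is a description.

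**Figure D5:**
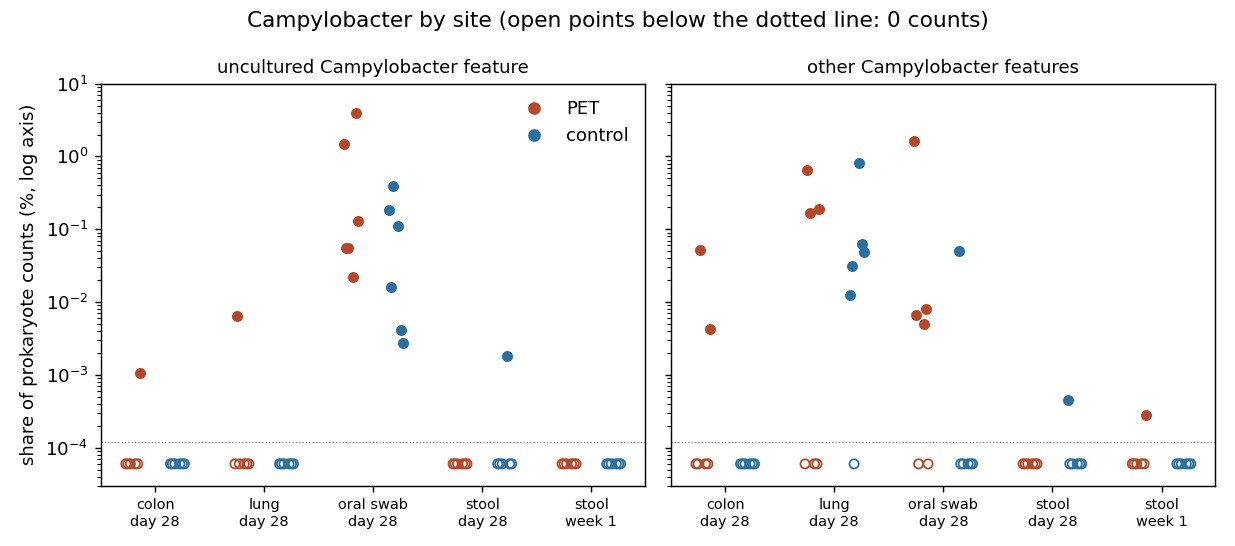
Campylobacter share of prokaryote counts (percent, log axis) by site and time, PET left of control, for the uncultured Campylobacter feature and for all other Campylobacter features; open points below the dotted line are libraries with 0 counts. The uncultured feature is found in all 12 oral swabs and in 3 other libraries, and the other features lie mainly in lung and in 5 of the 12 swabs.

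In lung, 23 of the 28 Campylobacteraceae features had counts, 17 of them at no other site. Of the 28, 21 (75%) were detected in 1 library and so at 1 site, against 73.8% of all prokaryote features. The 17 are therefore a description. Campylobacter took 0.648%, 0%, 0.167%, 0%, 0% and 0.188% of counts in PET libraries 1 to 6 and 0.0317%, 0.0622%, 0%, 0.804%, 0.0124% and 0.0484% in control libraries 1 to 6. The arms overlapped. PET library 1, with 797 counts, and control library 4, with 952, held most of the 2121 counts, spread over 9 and 8 features. Over all lung libraries the names included C. concisus, C. rectus, C. showae, C. gracilis, C. ureolyticus, C. hominis and C. pinnipediorum, the last described from seals. The log2 change of the genus was 8.93 ± 1.93 in lung over stool (edgeR adjusted p = 8.18e-05), where 65.8% of genera were called as higher. The median genus there stood at 6.34 with TMM factors and 7.33 with library totals. In PET over control lung the log2 change of Campylobacter was 0.09 ± 1.81 (edgeR adjusted p = 0.997).

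In colon Campylobacter had 50 counts in PET library 3, 15 in PET library 6 and 0 in the other 10 libraries, and its log2 change over stool was 5.32 (edgeR adjusted p = 0.298). The difference between the arms in that change passed the threshold (log2 change 13.39 ± 3.94, edgeR adjusted p = 0.0185), where 23.4% of genera were called as higher and 1.14% as lower in PET. It rests on those 2 colon libraries and on 8 and 2 counts in control stool libraries 4 and 5 of day 28. It was kept in 6 of 24 fits that each left out 1 library, and it was lost with DESeq2 (adjusted p = 0.556) and with limma (adjusted p = 0.699).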

How the data were processed

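The authors deposited 1 table of whole-number counts per feature and library, built from a biom file per the file headers, and 1 table of lineages with a classifier confidence, a fraction from 0 to 1 per the deposited file. Per the submitters' processing notes cutadapt, Bowtie2 and the mouse build GRCm39 were used; no source used here names the denoiser or classifier. Of 8574 features, 619 had no taxonomy line; these and non-prokaryote features were left out, which kept 7922 features and 99.3% of counts.

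Counts were summed by genus (578 labels) or kept by feature and tested over the whole table with edgeR 4.0.16 (quasi-likelihood F test, TMM factors, Benjamini-Hochberg adjustment, threshold 0.05), for genera or features with at least 10 counts and a count in 3 libraries. Exposure was tested at each site and time with 12 libraries, and sites and stool times, with their difference between arms, with 24. Correlations over 12 libraries used 100000 permutations, with Benjamini-Hochberg adjustment over the 8 measures. A group at 0 was read as a floor of 3 counts over the group; floors and intervals cover counting error only, since the reads carried no molecular identifiers in the sources used here. Alternatives were TMMwsp, library totals, DESeq2 1.42.0, limma 3.58.1 on centred log ratios, low count filters and all features. Each library was also left out in turn, and so was the later code block. That block is the 4 libraries whose column names start with a number of a later block. Fits were tested on simulated counts. Members and taxon lists (other mucus genera, reagent genera, rodent mouth genera) were chosen with earlier results of these data known. The rule for names took both genera, the 10 member features of highest mean share over all libraries, the leading member feature of each site, Campylobacteraceae features with at least 10 counts, up to 6 members past the threshold in each direction of a comparison, the 5 leading genera of the remaining colon community in each arm, and list members past the threshold in colon; the text describes those its results turn on.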

Additional observations from a re-analysis of the deposited data

Results flagged for a closer look

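Libraries were set against the other 5 of their group for 6 quantities, in the 53 groups of 6 libraries with a varying share, and 14 values stood apart. The rule's rate of about 1 in 20 groups holds for independent, normally distributed values. Many of these shares are 0, a group with 1 library above 0 stands apart by construction, and Helicobacter includes its features. The 14 values therefore cannot be read against that rate. PET oral swab 5 was high in Helicobacter (0.859%), H. apodemus (0.285%), H. mastomyrinus (0.0816%) and H. ganmani (0.482%) at once. Control stool library 6 at day 28 was apart for H. ganmani (5.66%), which was at 0 in the other 5. PET colon library 6 was apart for H. typhlonius (9.85%), and control stool library 5 at week 1 for H. mastomyrinus (1.42%). Control lung library 6 was apart for H. apodemus (1.73%), and control oral swab 6 had 0 counts, so a share of 0%, of H. typhlonius. For Campylobacter, PET colon library 3 (0.0516%), PET lung library 1 (0.648%), control lung library 4 (0.804%), control stool library 4 at day 28 (0.00179%) and PET stool library 6 at week 1 (0.000277%) stood apart. The difference between the arms in the colon over stool change of Campylobacter was 13.39 on the log2 scale, on 65 colon counts.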

How the results depend on the processing

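No paired analysis was possible because replicate numbers were given in accession order and libraries are not tied to animals. Helicobacter in colon over stool passed in all 10 other settings (log2 2.93 to 7.27) and in all 24 fits that left out 1 library (5.17 to 7.38). Where values moved, the cause was not tested unless fewer features or samples entered. With library totals the Helicobacter log2 change between the arms turned to 0.069 in colon and 0.038 in stool at week 1 (leave-one-out -0.51 to 0.089), its colon over stool difference between arms to 0.34 (leave-one-out -1.56 to 0.69), its change over time to 0.018 in control stool and the difference between arms in it to -0.31, which was -0.031 with no filter and -0.15 with all features (leave-one-out -0.13 to 0.43). Over time it was 0.027 with DESeq2 and 0.23 with limma in PET stool (leave-one-out -0.38 to 0.029), and 0.21 with limma in control stool. In oral swabs over stool it was -0.92 with no filter (edgeR adjusted p = 0.105; leave-one-out -1.46 to -0.35). Member features called in colon over stool were 2 with a stricter filter and 3 in PET libraries alone, against 6. In lung over stool they were 5 with DESeq2 and 7 with no filter, against 3, and in oral swabs 6 with library totals, 5 with limma and 9 with no filter, against 3. They were 1, against 0, with DESeq2 and with no filter between the arms at week 1, over time in control stool and in the difference between arms over time, and 1 with DESeq2 and with library totals in the colon over stool difference between arms. The stool-rich feature without a species label was 1.17 with limma in colon over stool, and H. typhlonius ran from -0.51 to 1.97 leaving out 1 library. For the colon over stool difference between arms H. ganmani was -2.65 with limma and -0.89 without the later code block (leave-one-out -2.42 to 13.13), and over time -15.66 to 0.18. H. mastomyrinus between the arms of colon ran from -0.42 to 0.82. Genera called between the arms of colon were 10 with DESeq2, 1 with limma and 3 with a stricter filter, against 22 (leave-one-out 8 to 22). Among the colon relations, r turned in the sets of 6 chosen after seeing the data: Shannon diversity 0.87, feature number 0.12, Lachnospiraceae 0.35 and reagent genera -0.42 in the lower set; Lactobacillaceae 0.71, stool features 0.19 and library total 0.24 in the upper set, where reagent genera had 0.44. Reagent genera had 0.92 in PET libraries alone, which also fall into 2 sets of 3. Lactobacillaceae had 0.48 in PET libraries alone and 0.00046 without the 2 farthest libraries.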
